A study of Hordeum vulgare with 18 samples.

Results

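The 3 genes described here are annotated as the nitrate carriers NPF6.3, NPF6.4 and NPF7.3 of highland barley, a hulless barley grown at high altitude. They are 3 of the 68630 loci in the count table. They were chosen by their measured differences between fertilizer rates and between organs, known from earlier results on the same libraries. Their differences are therefore descriptions, and no p-value of a carrier is printed. A carrier said to be called lay under the threshold used for all genes. Such a call is not a test of the carrier, since the choice of the carriers favoured it. The carriers belong to the NPF family (NRT1/PTR family), for which the table lists 120 loci, 89 of them with at least 1 count.

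RNA was sequenced from pot-grown plants at flowering. Pots of 3.5 kg of soil received a constant amount of nitrogen, phosphorus and potassium, with 0, 40 or 100% of the chemical nitrogen replaced by organic fertilizer. The 0% pots, the controls, were given urea (357 mg), superphosphate (1545 mg) and potassium sulfate (140 mg) and no organic fertilizer. At 40% the amounts were 215 mg urea, 1443 mg superphosphate, 122 mg potassium sulfate and 1117 mg organic fertilizer. At 100% they were 1289 mg superphosphate, 96 mg potassium sulfate and 2793 mg organic fertilizer, with urea not listed. Leaf and root were each sampled at every rate with 3 libraries, which makes 6 groups and 18 libraries. The titles of the samples say leaf and root, whereas the design text says above-ground and underground parts, and neither says whether a library came from 1 plant, 1 pot or a pool.

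Some carriers of the NPF family move nitrate into cells together with protons, using the gradient made by the plasma membrane proton pumps. In Arabidopsis, NPF6.3 (also NRT1.1 or CHL1) takes up nitrate at low and high affinity and acts as a nitrate sensor, and its phosphorylation by the kinase CIPK23, which works with calcium sensors of the CBL family, switches its affinity. NPF7.3 (NRT1.5) of Arabidopsis loads nitrate into the xylem in the root for transport to the shoot, and NPF6.4 (NRT1.3) is a close relative of NPF6.3.

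Locus D1007_25456, annotated NPF6.3, lies on the minus strand of scaffold SDOW01000262.1 at 1234218 to 1240330 and has a listed length of 2246 bases. Locus D1007_17999, annotated NPF6.4, lies on the minus strand of SDOW01000167.1 at 1782557 to 1790214, with a length of 2155 bases. Locus D1007_00549, annotated NPF7.3, lies on the minus strand of SDOW01000004.1 at 5119218 to 5122450, with a length of 2337 bases. No listed gene overlapped any of them, and the nearest one was 6293, 4016 and 79540 bases away. The descriptions are automatic matches to Arabidopsis proteins, and other loci carry the same names, so how reads were shared among near-identical copies is uncertain for all 3 carriers.

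Leaf libraries held 16.5 to 19 M counts and root libraries 13 to 16.9 M, so a floor of 3 counts equals 0.158 to 0.231 CPM (counts per 1000000 counts of a library). Genes of chlorophyll binding proteins and of the small subunit of the carbon-fixing enzyme (47 loci) summed to 57200 to 81400 CPM in 100% leaves, 93900 to 112000 CPM in 40% leaves and 58600, 90700 and 47900 CPM in control leaves 1, 2 and 3, against 11.4 to 19.3 CPM in root libraries. A list of 29 root marker loci summed to 895 to 1160 CPM in 100% leaves, 697 to 1020 CPM in 40% leaves and 2150, 750 and 2880 CPM in control leaves 1, 2 and 3, against 591 to 798 CPM in root libraries, so that list did not separate the organs and the root label has no positive check here. In both lists control leaf 2 stood nearer to the 40% leaves than control leaves 1 and 3 did, and the part of this difference in the leaf results was not tested. Levels in CPM are scaled by the total alone, while log2 differences come from a fit with scaling factors between libraries, so they need not give the same ratio. The spread between libraries of a group was wide in leaf, with a biological coefficient of variation of 45.8%, against 27.7% in root. In tissue samples of this kind, fewer cells of a type and less RNA per cell cannot be told apart.

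At the control rate the 3 carriers were divided between the organs. NPF6.3 averaged 113 ± 55.5 CPM in control leaves and 19.4 ± 2.4 CPM in control roots (SD, n = 3 each). NPF6.4 averaged 340 ± 77.8 CPM in control leaves and 3.47 ± 0.983 CPM in control roots (SD, n = 3 each). NPF7.3 had 1 count in the 3 control leaf libraries together and averaged 23.9 ± 0.841 CPM in control roots (SD, n = 3). In none of the 3 carriers did leaf and root ranges overlap, which was also so for 66.2% of all genes tested. All 3 were called at an adjusted p below 0.05 between leaf and root (edgeR quasi-likelihood test, Benjamini-Hochberg over all genes), NPF6.3 and NPF6.4 higher in leaf and NPF7.3 lower in leaf, where 56.2% of all genes tested were called.

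**Figure D1:**
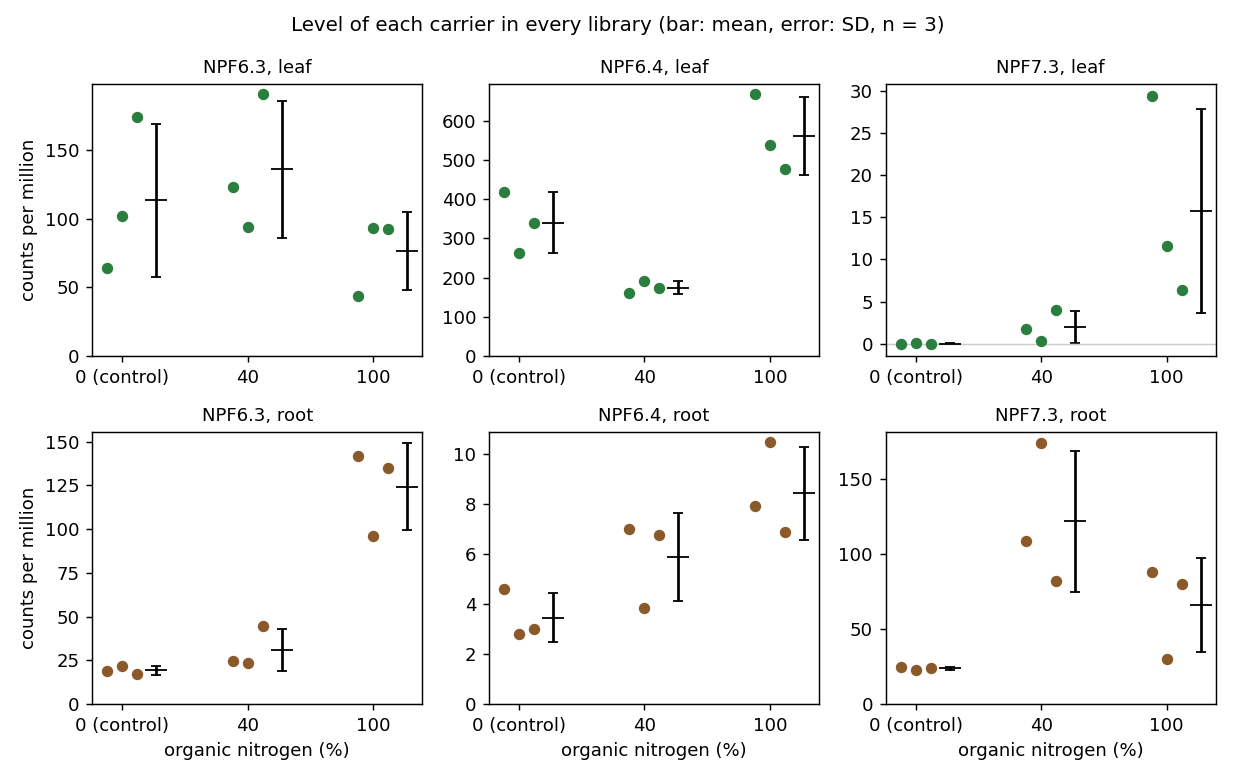
Level of each carrier in every library, in CPM on linear axes whose ranges differ between panels, for leaf (upper row) and root (lower row) at 0, 40 and 100% organic nitrogen. Points are libraries, and the bar and error beside them are the group mean and SD (n = 3). NPF6.3 in root lies between 96.0 and 142 CPM at 100%, above every other root library, and NPF7.3 in leaf lies between 6.32 and 29.4 CPM at 100%, above every other leaf library.

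NPF6.4, the relative of NPF6.3, was the most abundant NPF carrier of leaf. In leaf, its libraries had 419, 263 and 339 CPM at 0%, then 160, 192 and 173 CPM at 40%, and 669, 539 and 476 CPM at 100%. The 3 rates did not overlap, and the lowest levels were those at 40%. In CPM this complete order (40% below 0% below 100%) was found in 145 of the 20032 genes tested in leaf, 0.724%. With the scaling factors of the fit it was found in 243 genes, 1.21%, NPF6.4 among them. Counts per kilobase of gene length, which allow genes to be compared, placed NPF6.4 first among the NPF loci in leaf at every rate, with 158, 81.2 and 260 CPM per kilobase at 0, 40 and 100%.

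Between 100% and control leaves, NPF6.4 differed by 0.97 ± 0.25 on the log2 scale (SE) and was called higher. It was 1 of the 2 carriers called in that comparison, in which 22.9% of all genes tested were called. With library size alone, where the median of all genes was -0.33 in place of -0.07, it was 0.72 and not called. The call was also lost, with log2 differences of 0.85, 0.96 and 0.81, when control leaf 2, control leaf 3 or 100% leaf 1 was left out. Between 40% and control leaves the log2 difference was -0.96 ± 0.25 and was not called. Leaving out control leaf 2 gave -1.09 and a call. Between 100% and 40% leaves it was 1.93 ± 0.26, a call that was kept without any 1 library, and 2 of the 3 carriers were called there beside 18.6% of all genes.

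As a share of all NPF counts in leaf, NPF6.4 made up 16.1 ± 3.85% in control leaves, 11.3 ± 1.34% at 40% and 28 ± 2.3% at 100% (SD, n = 3 each). The share, too, was lowest at 40% and highest at 100%.

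In root, NPF6.4 was a minor carrier. Its libraries had 4.59, 2.79 and 3.02 CPM at 0%, 7.01, 3.84 and 6.78 CPM at 40%, and 7.91, 10.5 and 6.89 CPM at 100%. The 100% roots all lay above the control roots (no overlap, as in 33.8% of all genes tested), while the 40% roots overlapped both. The log2 difference was 1.24 ± 0.30 (SE) between 100% and control roots, which was called higher, and 0.74 ± 0.30 between 40% and control roots, which was not. Between 100% and 40% roots it was 0.50 ± 0.30, also not called. The call at 100% was lost without control root 2 (1.10), control root 3 (1.21), or 100% root 1 (1.26), 2 (1.07) or 3 (1.40). At 100%, leaf libraries still had 66.6 times the mean CPM of root libraries.

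NPF6.3 was called at no rate in leaf, where its spread was wide, and was called higher in root at 100%. In leaf, its libraries had 64.4, 102 and 174 CPM at 0%, 123, 94.2 and 191 CPM at 40%, and 43.9, 93.3 and 92.6 CPM at 100%. The control range spans the means at 40% and 100%, and the coefficient of variation within leaf groups was 36.7 to 49%. The log2 difference was -0.31 ± 0.41 (SE) between 100% and control leaves and 0.27 ± 0.41 between 40% and control leaves, and neither was called. Without control leaf 2 they were -0.35 and 0.22. Without control leaf 3 the difference at 100% was 0.11. At 40% it was -0.01 without control leaf 1 and -0.06 without 40% leaf 3, so the sign of neither difference is fixed by these libraries. Between 100% and 40% leaves it was -0.57 ± 0.41, not called. The ranges of these groups were apart in CPM (at most 93.3 against at least 94.2) but overlapped with the scaling factors of the fit. In CPM, 42.8% of all genes tested had no overlap there.

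In root, NPF6.3 had 18.9, 22.1 and 17.3 CPM at 0%, 24.7, 23.5 and 44.9 CPM at 40%, and 142, 96.0 and 135 CPM at 100%. The 3 rates were fully separated and ordered by rate, an order that 246 of the 21895 genes tested in root shared in CPM, 1.12%. With the scaling factors of the fit this order was found in 217 genes, 0.991%, NPF6.3 among them. The 100% roots averaged 124 ± 24.7 CPM, against 19.4 ± 2.4 CPM in control roots (SD, n = 3 each). The log2 difference was 2.63 ± 0.26 (SE) between 100% and control roots and 1.98 ± 0.26 between 100% and 40% roots, and both were called and were kept without any 1 library. Between 40% and control roots it was 0.65 ± 0.25 and was not called. All 3 carriers were called higher between 100% and control roots, where 10.2% of all genes were called, and NPF6.3 alone of the 3 was called between 100% and 40% roots, where 4.59% were.

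The share of NPF6.3 in all NPF counts of root was 0.967 ± 0.174% at 0%, 1.51 ± 0.678% at 40% and 6.21 ± 0.695% at 100% (SD, n = 3 each). Per kilobase it ranked 33rd of the NPF loci in control roots, 23rd at 40% and 4th at 100%. Leaf had 5.83 times the root mean in CPM at 0% and 4.38 times at 40%. Leaf and root libraries did not overlap at either rate, as in 66.2% and 69.1% of all genes tested. At 40% the log2 difference of leaf against root was 2.38 ± 0.38 (SE) and was called, as were 59.7% of all genes. At 100% the difference between the organs was not called. The log2 difference of leaf against root there was -0.14 ± 0.36 (SE, fit of all 18 libraries, in which 63.1% of all genes were called), and -0.70 ± 0.38 with library size alone. In CPM the 100% roots averaged 1.62 times the 100% leaves with no overlap, as in 72.2% of all genes tested. With the scaling factors of the fit the ratio was 1.10, and the libraries overlapped.

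NPF7.3 was the carrier with higher mean levels in root than in leaf at every rate, and with almost no counts in control leaves. In root, its libraries had 24.5, 22.9 and 24.2 CPM at 0%, 109, 174 and 82.3 CPM at 40%, and 87.9, 30.0 and 80.0 CPM at 100%. All libraries with organic fertilizer lay above all controls, where 19.2% of all genes at 40% and 33.8% at 100% did not overlap the controls. The highest mean of NPF7.3 was that at 40%, and its ranges at 40% and 100% overlapped. The 3 control roots lay within a coefficient of variation of 3.52%, against 38.7% at 40% and 47.7% at 100%.

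Between 100% and control roots, NPF7.3 differed by 1.42 ± 0.39 on the log2 scale (SE) and was called higher. That call was lost without control root 1 (1.40), 2 (1.37) or 3 (1.49), 40% root 1 (1.43), or 100% root 1 (1.11) or 3 (1.30). Between 40% and control roots the log2 difference was larger, at 2.33 ± 0.40, but was not called. Of the 3 carriers 0 were called there by edgeR, beside 0.306% of all genes, while all 3 had an unadjusted p below 0.05, as had 15% of all genes, and DESeq2 called 1, NPF7.3, beside 5.09% of all genes. The edgeR call also appeared when 40% root 1 or 100% root 2 was left out. Between 100% and 40% roots the log2 difference was -0.92 ± 0.39 and was not called.

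In leaf, NPF7.3 had 0, 1 and 0 counts in the control libraries, or 0, 0.0534 and 0 CPM. It had 1.76, 0.263 and 4.0 CPM at 40%, which is 101 counts in all. At 100% it had 29.4, 11.6 and 6.32 CPM, which is 816 counts. The rates were fully separated and ordered, as they were in CPM in 345 of the 20032 genes tested in leaf, 1.72%. With the scaling factors of the fit this order was found in 472 genes, 2.36%, NPF7.3 among them. Against the single control count, the ratio was 858 for 100% leaves (95% interval 153 to 33900) and 107 for 40% leaves (18.7 to 4250). These exact binomial intervals cover counting error only. Without 100% leaf 1, the highest library, the ratio at 100% was 493. Without 40% leaf 3 the ratio at 40% was 52.8. Control leaf 2 held the single count, and without it the level at 100% was at least 94.4-fold higher and that at 40% at least 11.7-fold higher than a floor of 3 counts per library. The calls of the fit are given with these limits, since a fitted fold change against so few counts depends on the prior count.

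In leaf, NPF7.3 was called higher at 100% than in controls and than at 40%. The log2 difference between 100% and 40% leaves was 3.25 ± 0.89 (SE), a call that was lost without 40% leaf 1 (3.20), 40% leaf 2 (2.73) or 100% leaf 1 (2.41). Between 40% and control leaves edgeR called 0 of the 3 carriers, beside 0.00998% of all genes. In that comparison 2 of the 3 had an unadjusted p below 0.05, as had 18.1% of all genes, and DESeq2 called 2, NPF6.4 lower and NPF7.3 higher, beside 7.56% of all genes. Root libraries had 60.6 times the leaf mean of NPF7.3 in CPM at 40% and 4.19 times at 100%. With the scaling factors of the fit the ratio at 100% was 2.83 and the ranges overlapped. The log2 difference of leaf against root was -5.71 ± 0.76 (SE) at 40% and -1.50 ± 0.62 at 100%. Both were called lower in leaf, beside 59.7% and 63.1% of all genes called. With library size alone the value at 100% was -2.07 ± 0.64 and was also called.

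**Figure D2:**
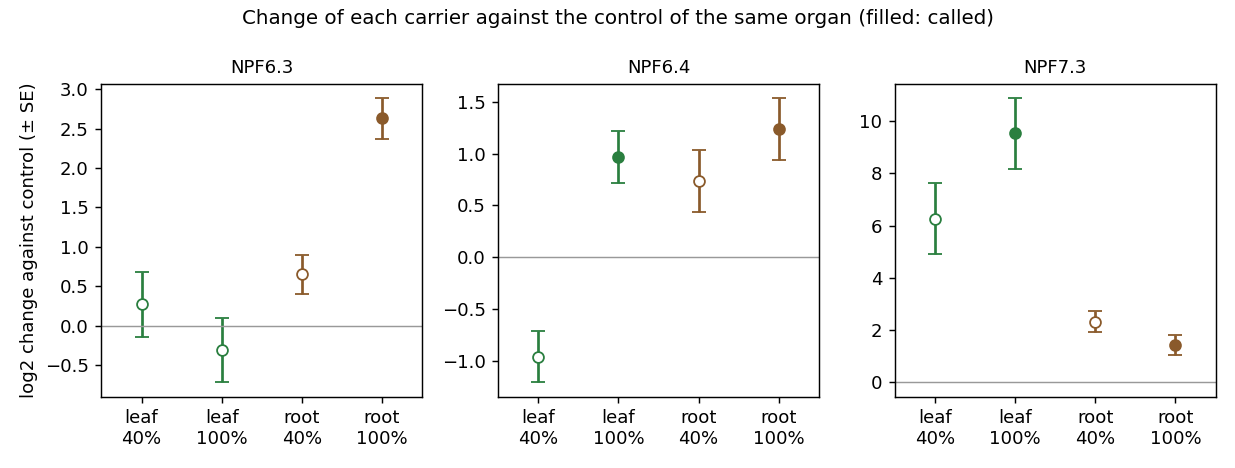
Log2 difference of each carrier from the control of the same organ (y axis, with its SE) at 40% and 100% in leaf and root, with a scale of its own in each panel; filled points were called at an adjusted p below 0.05 in edgeR. NPF6.3 stands at -0.31 in 100% leaves and at 2.63 in 100% roots, and both leaf values of NPF7.3 rest on 1 control count.

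The responses of leaf and root to 100% were compared directly, as the log2 difference in leaf minus that in root. For NPF6.3 it was -2.89 ± 0.53 (SE), called lower in leaf, and the call was kept without any 1 library. For NPF7.3 it was 8.17 ± 1.43, called higher in leaf, resting on the single control count. For NPF6.4 it was -0.23 ± 0.38 and not called, although its levels in the 2 organs were far apart. Of all genes tested, 15.9% were called in this comparison. For the response to 40% the values were -0.38 ± 0.52 for NPF6.3, -1.69 ± 0.39 for NPF6.4 and 3.96 ± 1.70 for NPF7.3. NPF6.4 alone was called, lower in leaf, beside 1.9% of all genes. That call was lost, at -1.91 to -1.50, on leaving out any 1 of 13 libraries. Only leaving out control leaf 2, 100% root 2 or any 1 of the 100% leaves kept it.

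The balance between the carriers moved with the rate in both organs. In leaf the level of NPF6.4 per kilobase was 6.78, 2.70 and 2.04 times that of NPF6.3 in control libraries. At 40% it was 1.36, 2.12 and 0.942 times, and at 100% it was 15.9, 6.02 and 5.35 times. The 40% and 100% leaves did not overlap in this ratio, and the control leaves overlapped both. In root the level of NPF7.3 per kilobase was 1.25, 1.00 and 1.34 times that of NPF6.3 at 0%. It was 4.25, 7.10 and 1.76 times at 40% and 0.597, 0.300 and 0.569 times at 100%. The 3 rates did not overlap, so NPF7.3 exceeded NPF6.3 in each 40% root and stood below it in each 100% root. As ratios within a library, these values do not depend on the scaling between libraries.

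**Figure D3:**
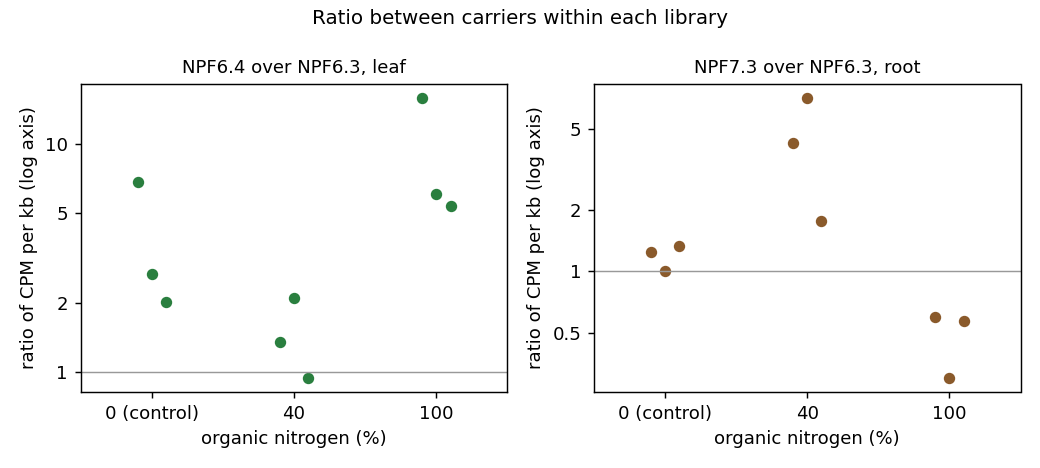
Ratio of NPF6.4 to NPF6.3 in leaf libraries and of NPF7.3 to NPF6.3 in root libraries, from CPM per kilobase, on log axes, at 0, 40 and 100% organic nitrogen; each point is a library and the line marks a ratio of 1. In root all 3 libraries at 40% are above 1 and all 3 at 100% are below 1.

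The table lists 13 further loci of the NPF6 and NPF7 subfamilies, of which 10 had a count and 5 were tested in leaf and 6 in root. At 100% against control, 0 of the 5 in leaf and 0 of the 6 in root were called by edgeR. Of all genes tested, 22.9% were called in leaf and 10.2% in root, so with so few loci 0 is near that share. Of the further loci, 1 in leaf and 0 in root had an unadjusted p below 0.05, against 37.1% and 28.2% of all genes. DESeq2 called 1 and 0 of the further loci, against 31.3% and 16.7% of all genes. At 40% edgeR again called 0 in leaf and in root, beside 0.00998% and 0.306% of all genes. At that rate 2 of the further loci in each organ had an unadjusted p below 0.05. Of all genes, 18.1% in leaf and 15% in root had one. DESeq2 called 1 of the further loci in each organ, beside 7.56% of all genes in leaf and 5.09% in root.

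The most abundant of these loci in leaf was D1007_28195, also annotated NPF6.3. It averaged 29.8 ± 11.7 CPM at 100% and 79.8 ± 19.8 CPM at 40%, against 14.4 ± 17 CPM in control leaves (SD, n = 3 each). Its adjusted p was 0.22 at 100% and 0.14 at 40% (edgeR), and without control leaf 2 it was 0.0014 at 100% and 0.0016 at 40%. In root D1007_28195 averaged 31.6 ± 14.6 CPM in controls, 15.3 ± 7.62 CPM at 40% and 20.4 ± 6.59 CPM at 100%. D1007_28194 and D1007_61579, also annotated NPF6.3, had 0 counts in leaf. At 0, 40 and 100% their root means were 2.48, 1.42 and 8.5 CPM, and 3.56, 0.219 and 0.686 CPM. The root rise of the NPF6.3 carrier was thus not common to all loci of that name. The most abundant in root was D1007_09332, annotated NPF7.2. In Arabidopsis NPF7.2 takes nitrate back out of the xylem sap, the opposite direction to NPF7.3. It averaged 79.6 ± 21.9 CPM at 100% and 106 ± 30.8 CPM at 40%, against 88.8 ± 28.2 CPM in control roots (SD, n = 3 each), with an adjusted p of 0.66 at 100% and 0.82 at 40% (edgeR). D1007_61272, annotated NPF6.2, had 1230, 1382 and 746 counts in the leaf groups at 0, 40 and 100% and 0 counts in all root libraries. The second locus annotated NPF7.3, D1007_03631, lay between 0.391 and 1.15 CPM in all group means. No further locus annotated NPF6.4 exceeded a group mean of 0.356 CPM.

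The wider nitrate pathway was read from 8 lists of genes found by their descriptions, 378 loci without the 3 carriers, of which 119 were tested in leaf and 145 in root. In leaf at 100%, 39 of 119 were called, 21 higher and 18 lower, or 32.8%, beside 22.9% of all genes. The median log2 difference was -0.01, against -0.07 over all genes. With library size alone, 17 were called higher and 24 lower. Leaving out control leaf 1 gave 21 calls and leaving out control leaf 3 gave 19. In root at 100%, 32 of 145 were called, 19 higher and 13 lower, or 22.1%, beside 10.2% of all genes. The median was 0.06, against 0 over all genes. The root count was 15, 9 and 19 without control root 1, 2 or 3, and 18 and 16 without 100% root 1 or 3.

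At 40% few of these loci were called, as were few of all genes. In leaf edgeR called 0 of 119, with 27 below an unadjusted p of 0.05 and 15 called by DESeq2. Of all genes in leaf, edgeR called 0.00998%, 18.1% had an unadjusted p below 0.05 and DESeq2 called 7.56%. The edgeR count of list loci rose from 0 to 9 without control leaf 2 and to 1 without 100% leaf 2. In root edgeR called 1 of 145, with 35 below an unadjusted p of 0.05 and 10 called by DESeq2. Of all genes in root, edgeR called 0.306%, 15% had an unadjusted p below 0.05 and DESeq2 called 5.09%. The list gene called in root was D1007_24512, the kinase CIPK7, at 98.7 ± 13.2 CPM in 40% roots and 48.4 ± 4.73 CPM in control roots (SD, n = 3 each; log2 difference 1.00 ± 0.16 SE, edgeR adjusted p = 0.044). Leaving out any root library except 40% root 1 gave it an adjusted p of 0.054 to 0.24, and the fit of all 18 libraries gave 0.59.

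Nitrate uptake by the high-affinity route rests on NRT2 carriers, which work at low nitrate. At the control rate 11 of 12 tested loci of this list were lower in leaf than in root, beside 56.2% of all genes called. Of the 12 loci tested in root, 5 rose at 100% and none fell, beside 10.2% of all genes called. The smallest adjusted p was that of D1007_49225, annotated as the uptake carrier NRT2.4. It averaged 62.8 ± 31.8 CPM in 100% roots and 2.27 ± 0.125 CPM in control roots (SD, n = 3 each; log2 difference 4.74 ± 0.52 SE, edgeR adjusted p = 0.0016). A locus assembled from the reads and annotated NRT2.1 (SDOW01001366.1, 141171 to 143912, minus strand) averaged 48.7 ± 31.9 CPM in 100% roots and 5.38 ± 1.41 CPM in control roots (adjusted p = 0.0043). The partner protein NAR2 helps NRT2 carriers to work. Its most abundant locus, D1007_44398, averaged 660 ± 232 CPM in 100% roots and 472 ± 9.31 CPM in control roots, with an adjusted p of 0.41. In leaf, 1 of 3 tested loci of this list was called, higher at 100%, beside 22.9% of all genes.

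Nitrate is reduced first to nitrite by nitrate reductase and then to ammonium by nitrite reductase. Both tested loci of this list rose in 100% leaves, beside 22.9% of all genes called. In 100% roots 2 of 3 rose, beside 10.2% of all genes called. D1007_31007, an NADH nitrate reductase, averaged 453 ± 234 CPM in 100% leaves and 3.21 ± 2.37 CPM in control leaves (SD, n = 3 each; log2 difference 7.40 ± 0.84 SE, edgeR adjusted p = 0.00066). D1007_08673, the chloroplast nitrite reductase, averaged 716 ± 386 CPM in 100% leaves and 153 ± 30 CPM in control leaves (edgeR adjusted p = 0.0028). D1007_08787, a nitrate reductase using NADH or NADPH, averaged 667 ± 101 CPM in 100% roots and 163 ± 25.5 CPM in control roots (edgeR adjusted p = 0.0026, and 0.069 in the fit of all 18 libraries).

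Carriers of the remaining NPF subfamilies move nitrate, peptides or hormones. In leaf at 100%, 7 of 43 rose and 11 fell, or 41.9% called, beside 22.9% of all genes. In root 1 of 55 rose and 9 fell, or 18.2%, beside 10.2% of all genes. With library size alone the counts were 6 and 13 in leaf and 4 and 8 in root. D1007_24918, annotated NPF8.3, fell in both organs. It averaged 10.8 ± 2 CPM in 100% leaves and 90.2 ± 15.7 CPM in control leaves (edgeR adjusted p = 0.00022), and 15.9 ± 1.85 CPM in 100% roots and 32.7 ± 7.05 CPM in control roots (edgeR adjusted p = 0.0054; SD, n = 3 each). D1007_28888, annotated NPF5.1, averaged 10.7 ± 1.07 CPM in 100% leaves and 75.9 ± 29.5 CPM in control leaves (edgeR adjusted p = 0.00075).

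Higher at 100% in leaf were D1007_29299, annotated NPF4.6, at 36 ± 1.1 CPM against 5.58 ± 1.9 CPM in control leaves, and D1007_22593, a second NPF8.3, at 40.7 ± 18.6 CPM against 6.18 ± 1.74 CPM in control leaves (edgeR adjusted p = 0.0011 and 0.0013; SD, n = 3 each). NPF8.3 carries short peptides in Arabidopsis, and NPF4.6 carries the hormone abscisic acid. The most abundant locus of these subfamilies in leaf, D1007_29441 (NPF8.3), had 71 ± 31.3 CPM at 100% and 246 ± 114 CPM in control leaves. Its adjusted p of 0.029 became 0.054 to 0.11 without control leaf 1 or 3, 40% leaf 1, or 100% leaf 1 or 2. In root the most abundant was a locus assembled from the reads and annotated NPF2.11 (SDOW01000018.1, 8101275 to 8105360, plus strand). It averaged 144 ± 23.9 CPM at 100% and 169 ± 9.68 CPM in control roots, with an adjusted p of 0.35.

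Among the factors of nitrate signalling, 1 of 9 tested in leaf fell at 100% (3 with library size alone), beside 22.9% of all genes called. In root edgeR called 0 of 9, beside 10.2% of all genes. There 3 had an unadjusted p below 0.05, beside 28.2% of all genes, and DESeq2 called 0, beside 16.7%. NLP factors switch on genes when nitrate is present, and NIGT1 factors repress them. The leaf gene was D1007_15177, annotated NLP1, at 34.4 ± 6.1 CPM in 100% leaves and 250 ± 207 CPM in control leaves (SD, n = 3 each; edgeR adjusted p = 0.028). Its adjusted p was 0.06 to 0.11 without control leaf 1 or 3 or any 1 of the 100% leaves. The NIGT1 locus D1007_48111 averaged 114 ± 14 CPM in 100% roots and 164 ± 50.3 CPM in control roots, with an adjusted p of 0.16.

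In 100% leaves 8 of 38 CIPK kinases and CBL calcium sensors rose and 4 fell, or 31.6%, beside 22.9% of all genes. In 100% roots 6 of 39 rose and 4 fell, or 25.6%, beside 10.2% of all genes. The most abundant in both organs was D1007_24830, annotated CIPK9. It averaged 607 ± 308 CPM in 100% leaves and 282 ± 66.7 CPM in control leaves (SD, n = 3 each; edgeR adjusted p = 0.026), and the adjusted p was 0.069 to 0.09 without control leaf 1 or 3 or 100% leaf 1. In root it averaged 721 ± 157 CPM at 100% and 785 ± 121 CPM in controls, with an adjusted p of 0.63.

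Of the plasma membrane proton pumps, which drive the carriers, 0 of 6 rose and 2 fell in 100% leaves, beside 22.9% of all genes called. In 100% roots 1 of 6 rose and 0 fell, beside 10.2% of all genes called. With 6 loci these counts are near those shares. The most abundant pump, D1007_18669, averaged 1080 ± 202 CPM in 100% leaves and 1240 ± 253 CPM in control leaves (adjusted p = 0.9), and 2720 ± 918 CPM in 100% roots and 2080 ± 79.7 CPM in control roots (adjusted p = 0.4; SD, n = 3 each, edgeR). Of the ion channels of xylem and vacuole, 3 of 13 rose in 100% leaves (1 with library size alone) and none fell. These are 23.1%, near the 22.9% of all genes called there. In 100% roots 4 of 15 rose and none fell, or 26.7%, beside 10.2% of all genes. D1007_09757, annotated as the potassium channel KOR1, averaged 80.4 ± 18.5 CPM in 100% roots and 26.9 ± 6.92 CPM in control roots (edgeR adjusted p = 0.004). The most abundant channel loci were not called. In leaf D1007_52651 (CLC-c, an anion channel protein) had 140 ± 119 CPM at 100% and 265 ± 133 CPM in controls, with an adjusted p of 0.43 that became 0.028 without 100% leaf 1. In root D1007_45281 (SLAH2, an anion channel) had 356 ± 101 CPM at 100% and 451 ± 38.5 CPM in controls, with an adjusted p of 0.27.

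**Figure D4:**
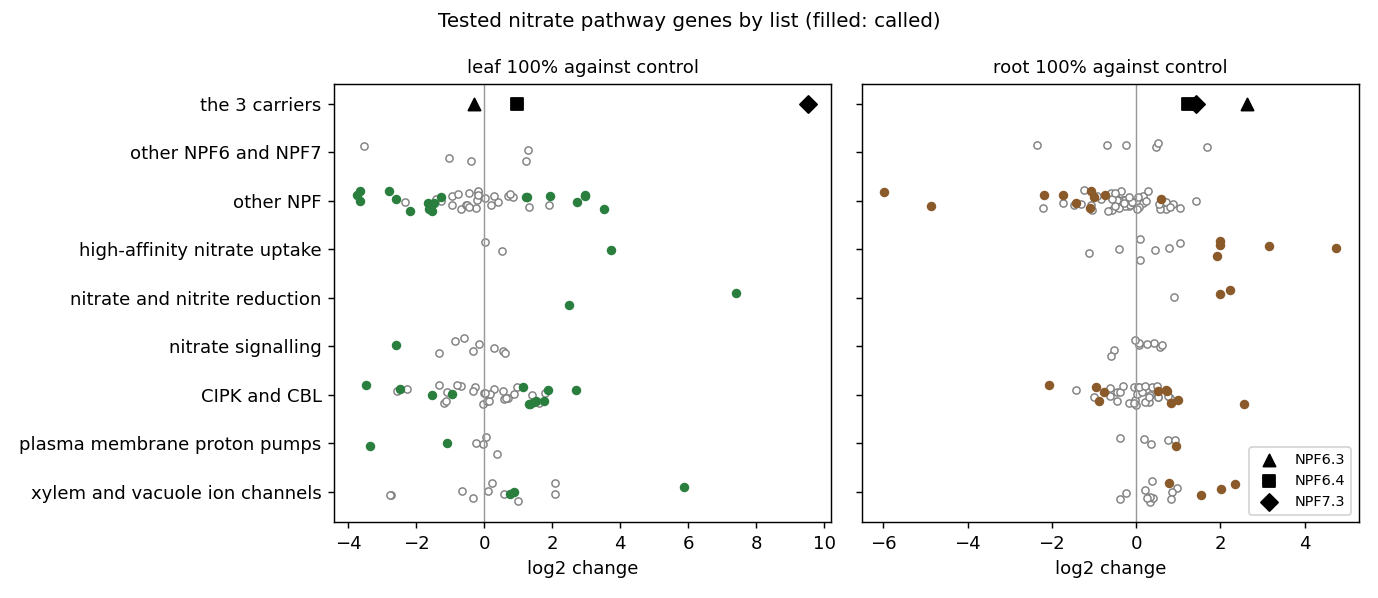
Log2 difference between 100% and control for every tested pathway locus, by list, in leaf and in root, with called loci filled. The 3 carriers are drawn in black in the top row, whether called or not. NPF6.3 stands at 2.63 in root, where 0 of the 6 further NPF6 and NPF7 loci and 10.2% of all genes tested were called.

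Genes of the circadian clock also differed between the rates, in both directions at 100%. Of the 23 clock loci tested in leaf, 8 were called higher and 3 lower at 100%, beside 22.9% of all genes called. Of the 26 tested in root, 8 were called higher and 6 lower, beside 10.2% of all genes. At 40% edgeR called 0 in leaf and 0 in root. The 26 clock loci summed to 4300 to 4990 CPM in 100% leaves, 2100 to 2560 CPM in 40% leaves and 1790 to 2210 CPM in control leaves. In root they summed to 1980 to 2420 CPM at 100%, 1400 to 1620 CPM at 40% and 1120 to 1370 CPM in controls. LHY (D1007_00729), a clock factor that peaks in the morning in Arabidopsis, averaged 1930 CPM in 100% leaves and 223 CPM in control leaves, a log2 difference of 3.36 ± 0.35 (SE, edgeR adjusted p = 0.00048). In roots it averaged 533 CPM at 100% and 85.2 CPM in controls, a log2 difference of 2.60 ± 0.19 (SE, edgeR adjusted p = 0.00017). The sums are weighted toward abundant loci such as LHY. In contrast, PRR95 (D1007_25582) was called lower at 100% in both organs. Its log2 difference was -2.20 ± 0.20 in leaf and -0.88 ± 0.16 in root (SE). The labels give no time of day, and the part of the clock genes in the levels of the 3 carriers was not tested.

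Genes with patterns most like each carrier were found by Pearson's r of log2 CPM over the 9 libraries of the organ where the carrier was higher, among genes with an informative description. The values describe 9 libraries that share 3 rates, and r over all 18 libraries is given beside them. For NPF6.3 in leaf they were D1007_34170, the DNA-binding protein EMBP-1-like (0.97, and -0.63 over 18), D1007_20403, a primary amine oxidase (0.97 and -0.57), and a cytoplasmic aldolase locus assembled from the reads (SDOW01000582.1, 554910 to 589259, minus strand; 0.96 and -0.55). Over both organs the sign of r was thus the opposite for all 3. For NPF6.4 in leaf they were D1007_01125, a kinase annotated RIPK (0.99, and 0.76 over 18), D1007_25107, a zeaxanthin epoxidase (0.98 and 0.99), and D1007_41876, a tonoplast dicarboxylate transporter (0.98 and 0.97). For NPF7.3 in root they were D1007_52385, the xylosyltransferase XYXT1 (0.97, and 0.62 over 18), D1007_00660, another kinase annotated RIPK (0.96 and 0.49), and D1007_31699, a GDSL esterase (0.95 and 0.65).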

How the data were processed

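The measure was RNA of 18 highland barley samples, in the authors' deposited table of raw read counts. The submitters' processing notes name these tools, with no role for any: DESeq2 1.20.0, featureCounts 1.5.0-p3, HISAT2 2.0.5, fastp and CASAVA 1.8. GRCm38 and mm10, which are mouse builds, are named there too, although the loci lie on barley scaffolds. Whether counting used strand, and what was done with reads matching several loci, was not given in the sources. The gene length, another deposited column in bases per the file headers, was used for CPM per kilobase. Loci assembled from the reads number 5073 and are named by annotation and position.

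CPM were computed from total counts. Tests used the edgeR 4.0.16 quasi-likelihood pipeline (R 4.3.3), TMM factors and filterByExpr (minimum count 10, minimum total 15). The p, 2-sided, were adjusted over all genes (Benjamini-Hochberg) with a threshold of 0.05. Each organ's 9 libraries shared a fit (6 residual degrees of freedom, 20032 genes in leaf and 21895 in root). Leaf against root and the differences between responses used all 18 (12 residual degrees of freedom, 24046 genes). The SE is the size of the log2 change over the square root of F. The script was tested on simulated counts with known changes. Since no source says that libraries came from separate plants, p-values reflect only the spread between these samples, which may be technical. Same-numbered libraries did not deviate together, so no block was used.

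The 3 carriers and the gene lists were chosen with earlier results of these data known. Words of 3 lists (proton pumps, nitrite reductase, NIN-like factors) were corrected after the descriptions and counts were seen and before any test. Pathway genes were named by rule: per comparison with the control up to 5 called list genes of smallest adjusted p, and per list and organ the most abundant gene. All loci of the NPF6 and NPF7 subfamilies were read. D1007_61272, D1007_03631, D1007_28194 and D1007_61579 were singled out of them after their values were seen, as were LHY and PRR95. Likeness used log2 CPM with TMM factors and a prior count of 2. The alternatives tried were RLE factors, library size alone, no filter, a replicate block, DESeq2 1.42.0, 1 fit for all 18 libraries, and each library left out. Ranges, orders and ratios of the carriers with TMM factors in place of totals, and leaf against root at 40 and 100%, were added after seeing the data.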

Additional observations from a re-analysis of the deposited data

Results flagged for a closer look

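Several genes differed between the responses of leaf and root to 100%, given as the log2 difference in leaf minus that in root. The values come from an interaction term of edgeR, which is not a test of the carriers, since they were chosen from these data. NPF6.3 had -2.89 ± 0.53 (SE) and NPF7.3 had 8.17 ± 1.43, the second resting on 1 count in the control leaves. Among the pathway genes, D1007_24918 (NPF8.3) had -1.68 ± 0.27 with an adjusted p of 0.0011 in edgeR, and D1007_28888 (NPF5.1) had -3.09 ± 0.46 with an adjusted p of 0.00072. D1007_31007 (nitrate reductase) had 6.54 ± 0.97 with an adjusted p of 0.00072, and D1007_29299 (NPF4.6) had 3.30 ± 0.44 with an adjusted p of 4e-04. D1007_24512 (CIPK7) had -3.26 ± 0.58 with an adjusted p of 0.0023. For the response to 40%, NPF6.4 had -1.69 ± 0.39, and that call was lost in 14 of 23 alternatives. Groups of 3 libraries are too small for a test of single outlying libraries.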

How the results depend on the processing

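Of the log2 differences of the 3 carriers, 314 of 324 values with 1 library left out and 150 of 153 under the other alternatives lay within 1 SD between replicates of the value reported, and no called value changed sign. For NPF6.3, the uncalled response to 40% was 0.03 without control leaf 3. With library size alone NPF6.4 had 1.68 between 100% and 40% leaves and -0.56 for the response to 100%, and with DESeq2 NPF7.3 had -10.18 between control leaf and root. NPF7.3 against control leaves ranged from 8.69 to 11.31 at 100% and from 5.26 to 8.02 at 40% with 1 library left out. Its response differences ranged from 7.44 to 10 at 100% and from 2.96 to 5.80 at 40%, and leaf against root from -11.5 to -9.22. DESeq2 and the fit of all 18 libraries called NPF6.4 and NPF7.3 in 40% leaves. NPF7.3 in 40% roots was called with library size alone, no filter and DESeq2, and NPF7.3 in 100% roots lost its call in the fit of all 18 libraries (1.36). The mean of NPF6.3 in leaf over root at 100% was 0.617 in CPM and 0.91 with TMM factors of all 18 libraries, an alternative chosen after seeing the data. The causes were not tested, except that this last pair differs by the scaling alone.

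The count of called pathway genes depended more on the processing. DESeq2 and the 18-library fit gave 15 and 17 in 40% leaves in place of 0. The 18-library fit gave 49 between 100% and 40% leaves in place of 30, 12 in 100% roots in place of 32, 0 in 40% roots in place of 1, and 8 between 100% and 40% roots in place of 24. DESeq2 gave 10 in 40% roots, 40 between 100% and 40% roots and 17 for the response to 40% in place of 4, and no filter gave 2 in 40% roots. Library size alone split the calls between 100% and 40% leaves into 14 higher and 15 lower in place of 21 and 9, and those of the response to 100% into 7 and 21 in place of 10 and 14.

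With 1 library left out the counts ranged from 19 to 35 in 100% leaves, 0 to 9 in 40% leaves, 9 to 38 between 100% and 40% leaves, 9 to 33 in 100% roots, 0 to 1 in 40% roots and 10 to 24 between 100% and 40% roots. They ranged from 14 to 27 for the response to 100%, 0 to 18 for that to 40% and 102 to 119 for leaf against root. Between 100% and 40% leaves the count was 9, 12 and 15 without 40% leaf 1, 2 or 3 and 18 without 100% leaf 1. Between 100% and 40% roots it was 10 to 15 without control root 1 or 2, 40% root 1 or 2, or 100% root 1 or 3. For the response to 100% it was 14 or 15 without control leaf 3, control root 1 or 2, or 100% root 3. For the response to 40% it stayed within 1.5 times of 4 only without 100% leaf 2.

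The replicate block gave 28 in 100% leaves, 23 in 100% roots, 0 in 40% roots, 15 between 100% and 40% roots and 1 for the response to 40%. Under it the calls of NPF7.3 between 100% and 40% leaves (3.52), of NPF6.4 and NPF7.3 in 100% roots (1.28 and 1.39) and of NPF6.4 in the response to 40% (-1.66) were lost, as were those of D1007_15177 (NLP1) in 100% leaves (-2.22, adjusted p = 0.067 in edgeR) and of D1007_24512 (CIPK7) in 40% roots (1.00, adjusted p = 0.068 in edgeR). Residuals of same-numbered libraries correlated at -0.16 to 0.16 over 45 pairs. A small pot effect, or one of 1 organ only, could look the same, so whether the numbers pair the libraries stays unknown.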
